A study of Drosophila melanogaster with 3 samples.

Results

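The peaks described here are the 1166 sites on the X chromosome among the 5809 sites bound by ind-eGFP in the authors' optimal list, all those whose chromosome in that dm6 list is X. They made up 20.1% of the list, and the other 4643 peaks, on the arms 2L, 2R, 3L, 3R and 4, serve as the autosomal reference. The assay was ChIP-seq, in which chromatin is sonicated, precipitated with an antibody, here against GFP, and sequenced. The material was whole Drosophila melanogaster embryos of both sexes pooled, aged 0 to 16 hours, from 1 transgenic line that stably expresses ind with GFP fused to its C terminus. There were 3 biological replicates of 1 group, all carrying this transgene, and the labels used here do not say what drives it. No embryos without the tag were analysed here.

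Ind is a homeodomain protein that gives the intermediate column of the early neuroectoderm its identity. Female flies carry a pair of X chromosomes and males a single one. Males raise transcription of their X through the dosage compensation complex, which contains the histone acetyltransferase Mof and the non-coding RNAs roX1 and roX2. A transcription factor peak marks a stretch of chromatin that was recovered with the tagged protein. Such a peak may stand at a promoter, in an intron or between genes.

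Many X peaks held the letters CACTG near their summits, and so did most of the sites printed here. The sequences printed here belong to the 3 strongest promoter peaks from different genes for which sequence was extracted, the 4 strongest intron peaks and the 3 strongest peaks of the largest cluster. They are given on the plus strand of the Release 6 RefSeq genome (dm6), centred on the summit except where an annotated UTR ends them. Capitals mark CACTG or its reverse complement CAGTG.
Ugalt promoter, chrX:2703853-2704025: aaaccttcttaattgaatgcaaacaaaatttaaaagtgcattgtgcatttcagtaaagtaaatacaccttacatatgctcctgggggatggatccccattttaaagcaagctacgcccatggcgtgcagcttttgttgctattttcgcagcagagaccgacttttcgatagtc
ph-p promoter, chrX:2137188-2137486: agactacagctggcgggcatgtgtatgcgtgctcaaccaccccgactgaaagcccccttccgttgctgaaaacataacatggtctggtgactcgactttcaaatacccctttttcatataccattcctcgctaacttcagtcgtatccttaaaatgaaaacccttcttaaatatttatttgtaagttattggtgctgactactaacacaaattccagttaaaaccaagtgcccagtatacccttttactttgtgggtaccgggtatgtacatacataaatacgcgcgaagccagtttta
CG4004 promoter, chrX:12751278-12751576: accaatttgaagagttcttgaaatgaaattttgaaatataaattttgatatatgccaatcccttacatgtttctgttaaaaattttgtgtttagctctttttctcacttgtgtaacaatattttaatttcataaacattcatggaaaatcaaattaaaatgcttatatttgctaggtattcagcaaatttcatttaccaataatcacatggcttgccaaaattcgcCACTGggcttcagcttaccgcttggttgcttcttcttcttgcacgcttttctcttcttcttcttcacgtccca
CG32772 intron, chrX:4910208-4910506: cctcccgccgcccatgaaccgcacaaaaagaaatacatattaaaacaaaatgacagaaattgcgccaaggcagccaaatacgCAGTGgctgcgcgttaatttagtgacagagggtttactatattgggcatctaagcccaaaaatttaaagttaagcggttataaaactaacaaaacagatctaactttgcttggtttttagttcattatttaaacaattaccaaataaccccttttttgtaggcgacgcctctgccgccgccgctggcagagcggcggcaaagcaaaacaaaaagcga
Raf intron, chrX:2297584-2297882: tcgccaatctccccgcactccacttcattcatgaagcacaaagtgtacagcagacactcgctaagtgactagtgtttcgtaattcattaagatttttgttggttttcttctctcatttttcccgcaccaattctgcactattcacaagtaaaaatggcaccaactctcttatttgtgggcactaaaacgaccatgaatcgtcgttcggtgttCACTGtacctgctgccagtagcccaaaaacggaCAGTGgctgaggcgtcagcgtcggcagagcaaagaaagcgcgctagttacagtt
Tlk intron, chrX:3742079-3742377: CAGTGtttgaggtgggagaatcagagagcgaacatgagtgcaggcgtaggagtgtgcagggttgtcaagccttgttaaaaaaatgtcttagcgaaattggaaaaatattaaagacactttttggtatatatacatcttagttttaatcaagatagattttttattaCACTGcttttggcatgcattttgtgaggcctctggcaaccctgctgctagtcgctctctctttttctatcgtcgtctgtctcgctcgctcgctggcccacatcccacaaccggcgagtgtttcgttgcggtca
norpA intron, chrX:4324836-4325134: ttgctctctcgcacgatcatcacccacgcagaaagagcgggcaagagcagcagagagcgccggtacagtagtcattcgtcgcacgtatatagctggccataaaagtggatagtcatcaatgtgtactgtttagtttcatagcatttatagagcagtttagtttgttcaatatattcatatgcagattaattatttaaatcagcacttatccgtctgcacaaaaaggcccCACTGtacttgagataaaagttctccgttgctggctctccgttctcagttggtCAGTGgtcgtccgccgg
CHES-1-like intron, chrX:7706862-7707160: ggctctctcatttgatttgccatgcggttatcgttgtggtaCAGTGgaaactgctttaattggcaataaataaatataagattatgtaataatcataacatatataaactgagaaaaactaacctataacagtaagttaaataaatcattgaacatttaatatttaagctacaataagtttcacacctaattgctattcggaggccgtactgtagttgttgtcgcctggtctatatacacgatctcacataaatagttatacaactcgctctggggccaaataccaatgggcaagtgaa
CHES-1-like intron, chrX:7700261-7700559: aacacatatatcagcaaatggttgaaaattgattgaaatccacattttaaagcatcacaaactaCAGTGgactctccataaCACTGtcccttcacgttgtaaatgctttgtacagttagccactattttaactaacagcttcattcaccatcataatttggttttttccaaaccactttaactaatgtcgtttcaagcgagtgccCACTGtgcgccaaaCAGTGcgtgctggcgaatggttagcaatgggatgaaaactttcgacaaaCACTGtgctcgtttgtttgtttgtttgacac
CHES-1-like promoter, chrX:7696940-7697238: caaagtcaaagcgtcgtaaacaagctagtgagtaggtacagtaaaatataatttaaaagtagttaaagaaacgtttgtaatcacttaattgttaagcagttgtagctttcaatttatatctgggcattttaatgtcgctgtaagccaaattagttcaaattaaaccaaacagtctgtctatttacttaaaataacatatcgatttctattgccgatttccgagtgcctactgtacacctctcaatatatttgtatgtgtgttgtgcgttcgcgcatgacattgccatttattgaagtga

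The word was absent from the Ugalt, ph-p and last CHES-1-like sequences, all at promoters, and occurred once in that of CG4004, the nearest coding gene to a peak of lncRNA:CR44619. It occurred once in the CG32772 intron and the first CHES-1-like sequence, in 2 places in each of Raf, Tlk and norpA, and in 5 places in the second CHES-1-like sequence. CACTG was chosen after 6-letter words had been ranked at the X summits by their share within 100 bp against equally wide flank windows lying 1000 bp away on either side, so its values are a description with no test. Among the 555 words held by at least 10% of X summits outside promoters, GTGCAC ranked first (11.4% of summits, 3.35% of flanks). AGTGTA followed with 21.0% of summits and 7.28% of flanks. The word ACAGTG, which contains CACTG on its other strand, was held by 26.8% and 9.75%. The word ACACTG, which contains it directly, was held by 18.8% and 7.71%. At X promoter peaks the first of 544 words were CGATAG (17.3% and 5.43%) and TATCGA (22.1% and 7.83%), followed by the same pair, ACAGTG first and then ACACTG. Autosomal summits held most of these words at a similar share. Outside promoters they held GTGCAC at 10.3%, AGTGTA at 22.5% and ACACTG at 19.7%, and ACAGTG at a lower 21.2%. At autosomal promoter peaks CGATAG was at 16.9% and TATCGA at 22.4% of summits.

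The letters CACTG, sought on either strand, lay within 100 bp of 53.8% of X summits and in 30.2% of X flank windows, an excess of 23.6 points that was 5.02 points in windows of 50 bp. It was held by 30.2% of all windows of that width on the X and by 37.2% of those centred on X transcription starts. The share was 57.0% at X intron peaks, 61.3% at X intergenic peaks and 48.9% at X promoter peaks. The autosomal shares ran in the same order, at 52.5%, 54.7% and 44.5%. Autosomal peaks carried it too, at 48.9% of summits and 31.0% of flanks. In the replicates' own lists, 50.1%, 52.8% and 54.7% of X summits held the word in replicates 1, 2 and 3, against 46.4%, 49.0% and 49.3% of autosomal summits. The X was thus above the autosomes in 3 of 3 replicates.

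Matches were fewer at the summit itself than beside it. Within 20 bp of X summits there were 7.29 matches per 100 peaks, whereas the ring from 60 to 79 bp and that from 80 to 99 bp each held 22.2 matches per 100 peaks. The count fell to 10.5 at 140 to 159 bp. At 80 to 99 bp X intron peaks had 27.4 matches per 100 peaks, autosomal intron peaks 19.5, X promoter peaks 15.0 and autosomal promoter peaks 12.9. Promoter peaks were highest at 60 to 79 bp, with 18.8 on the X and 13.7 on the autosomes, where X intron peaks had 24.3. In replicates 1, 2 and 3 the X ring at 80 to 99 bp held 19.5, 21.2 and 22 matches per 100 peaks, and the innermost ring held 8.56, 8.60 and 8.14. Base composition changed over the same distance. A and T made up 67.1% of bases within 20 bp of X summits, 60.3% at 80 to 99 bp and 57.3% at 140 to 159 bp. Its part in the placement of the word was not tested.

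**Figure D1:**
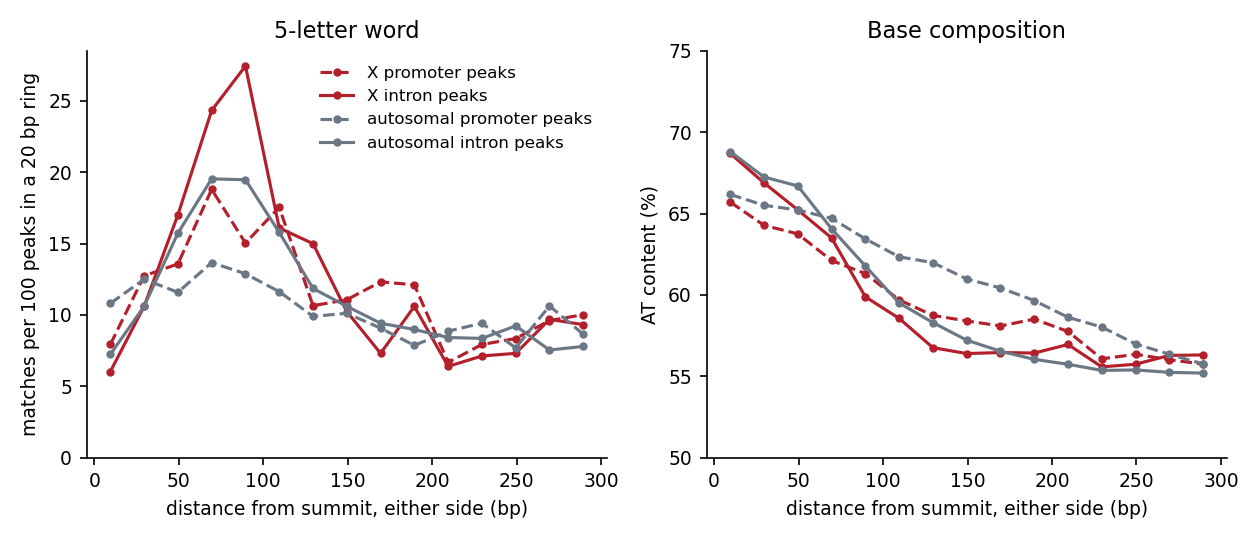
Left, matches to the word CACTG on either strand per 100 peaks in rings of 20 bp around the summit, both sides together. Right, the AT content of the same rings in percent, from X promoter, X intron, autosomal promoter and autosomal intron peaks. X intron peaks are highest at 80 to 99 bp, with 27.4 matches per 100 peaks, and have 6.03 in the innermost ring.

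Peaks were denser on the X than on the autosomes, at 49.5 against 42.1 per Mb of arm. The highest autosomal arm was 2L, at 45.5. The replicates' own 5809 strongest peaks gave 45.7, 50.9 and 50.1 X peaks per Mb in replicates 1, 2 and 3, against 42.9, 41.8 and 42.0 on the autosomes. The X was higher in 3 of 3 replicates, with a ratio of 1.16 ± 0.0827 (SD, n = 3). The exact two-sided sign-flip permutation test over the replicates gave p = 0.25 (adjusted p = 0.318 over 14 measures). That p is the smallest this test can give with 3 replicates, so no difference between X and autosomes could pass the usual threshold in it. Since the X has fewer annotated starts per Mb, the gap widened per start, to 29.8 peaks per 100 starts on the X against 23.6 on the autosomes. The share of X copies in embryos of both sexes and the reads of the control were not taken into account, and their part was not tested. Of the 4379 relaxed X peaks called on the pooled reads, 26.6% entered the optimal list, against 24% over all arms.

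The excess per start lay mainly in segments 2 to 6 of the X, when the arm was cut into 10 equal segments. In map order these 10 held 111, 128, 165, 167, 135, 132, 108, 104, 90 and 26 peaks. Segment 1, the most distal, had 23.4 peaks per 100 starts, against 23.6 on the autosomes. Segments 3 and 4 carried 41.3 and 41.1 peaks per 100 starts, and the highest segment of any large autosomal arm reached 31.2. Per Mb, segments 3 and 4 held 70.1 and 70.9 peaks, and the highest autosomal segment, on 3L, held 65.5. In replicates 1, 2 and 3 segment 3 held 147, 165 and 158 peaks, and segment 10 held 20, 29 and 25. In all, 94.9% of X peaks lay in the first 20 Mb, where 90.5% of the X starts lie. By full 1 Mb bins the X held between 7 and 85 peaks, with a median of 49. The bin from 3 to 4 Mb held 68 peaks on only 112 starts, and 50 of those peaks were in introns. Genes in it include the kinase gene Tlk, described below.

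**Figure D2:**
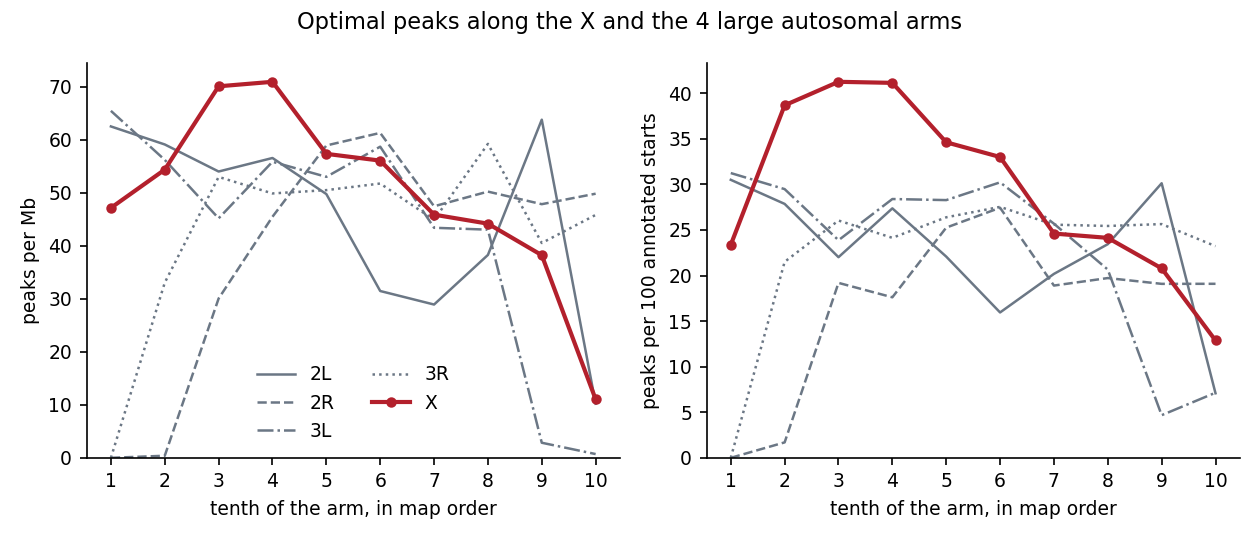
Optimal peaks per Mb (left) and per 100 annotated transcription starts (right) in each of 10 equal segments of the X (red) and of the 4 large autosomal arms (grey). The X reaches 70.9 peaks per Mb in segment 4 and falls to 11 in segment 10, which is next to the centromere, as on 2L (10.2) and 3L (0.711).

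X peaks stood at promoters less often and in introns more often than autosomal peaks. Of the X peaks 479 (41.1%) had their summit within 500 bp of an annotated start, which is the definition of a promoter used here, against 49.8% of autosomal peaks. The X promoter share was 46.3%, 38.9% and 41.3% in replicates 1, 2 and 3, and the autosomal share was 54.1%, 47.6% and 49.9%. The X was lower in each replicate, by -8.39 percentage points ± 0.556 (SD, n = 3). Introns, here including exons of non-coding genes, held 547 X peaks (46.9%) against 34.5% on the autosomes. The replicates gave 43.2%, 48.1% and 47.4% on the X and 32.0%, 35.7% and 34.8% on the autosomes. The X intron share was thus higher in 3 of 3 replicates, by 12.1 points ± 0.753 (SD, n = 3). Both differences had the smallest possible exact permutation p of 0.25 (adjusted p = 0.318).

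Among the large autosomal arms the intron share lay between 32.9% on 2L and 36.6% on 3R, so the X stood outside their range. Introns make up 44.1% of the bases of the X and 39.5% of the autosomes. Per Mb of intron the X had 52.7 peaks, the autosomes 36.8 and the highest autosomal arm, 2L, 40.0. Promoters differed less, with 161 peaks per Mb of promoter on the X and 152 on the autosomes. Intergenic sequence held 106 X peaks (9.09%), against 14.5% on the autosomes and 11.4% on 2R, the lowest large autosomal arm. It makes up 22.6% of the bases of the X and 28.2% of the autosomes. Per Mb of intergenic sequence the X had 19.96 peaks and the autosomes 21.6. The large autosomal arms ran from 15.2 on 2R to 25.5 on 2L, so by this measure the X lay within their range. The 3' UTRs, examined after the data had been seen, held 24 X peaks (2.06%) against 0.646% on the autosomes. Replicates 1, 2 and 3 put 1.77%, 1.50% and 1.95% of X peaks there, and 0.613%, 0.694% and 0.670% of autosomal peaks. These UTRs make up 5.92% of the bases of the X and 4.11% of the autosomes. Per Mb of 3' UTR the X had 17.2 peaks and the autosomes 6.61. The strongest of the 24 was in CG7872, at 3.47 times the median signal of the list. Coding sequence held 3 X peaks and 5' UTRs outside promoters held 7.

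**Figure D3:**
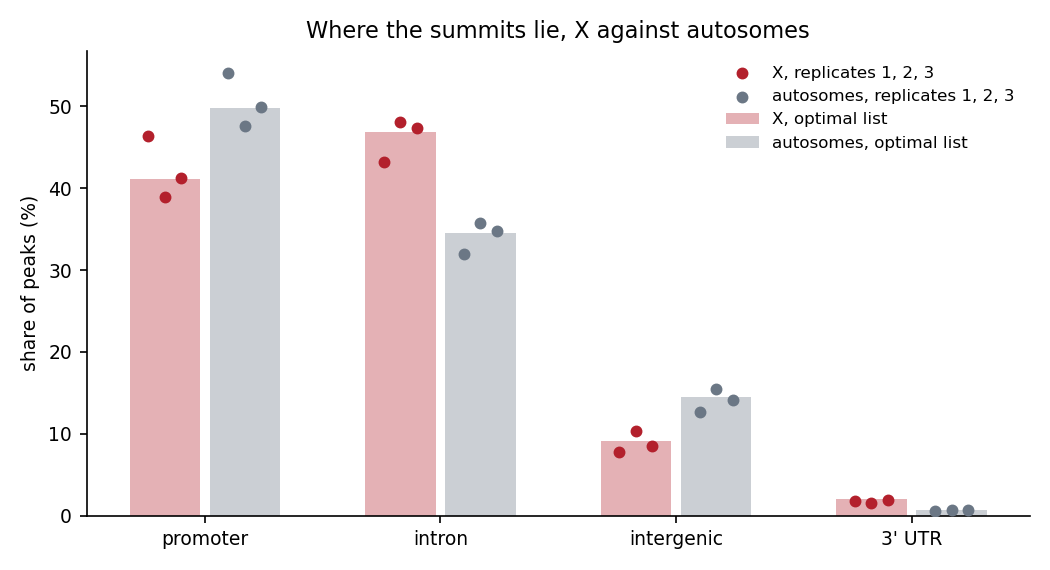
Share of peaks in percent at promoters, in introns, between genes and in 3' UTRs, for the X (red) and the autosomes (grey). Bars give the optimal list and points the 5809 strongest peaks of each replicate, from left to right replicates 1, 2 and 3. The red and grey points do not overlap in any of the 4 classes.

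Promoter peaks on the X stood mostly just upstream of the start. Of the 479 summits 397 lay upstream and 82 downstream, with a median of -126 bp. For 145 of them (30.3%) starts of both strands lay within 500 bp. The nearest start belonged to a protein-coding gene in 447 and to a non-coding gene in 32. Intron peaks lay further away, with a median distance of 2784 bp to the nearest start, and 181 of the 547 (33.1%) lay over 5000 bp from any start. Autosomal intron peaks were similar, with a median of 2494 bp and 30.8% over 5000 bp. Of the 524 in introns of coding transcripts, 328 (62.6%) were in a first intron, and first introns hold 48.8% of such bases on the X. Another 140 were in a second intron and 56 in a later one. Taken over all X peaks, the median distance to a start was 914.5 bp, against 506 bp on the autosomes.

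The larger intron share was most marked among the strongest peaks. Signals are those the authors deposited per peak, divided here by the median of the list. Among the 1452 strongest peaks of the list the X had 269, of which 44.2% were in introns and 49.1% at promoters. Autosomal peaks of that class were in introns in 26.5% and at promoters in 63.4%. Among the 1452 weakest peaks introns took 47.9% of X peaks and 40.5% of autosomal peaks. The median relative signal of X peaks was 0.966, with 1.06 at promoters, 0.947 in introns and 0.772 between genes. On the autosomes these medians were 1.01, 1.15, 0.905 and 0.867. The ratio of the X median to the autosomal median was 0.987, 0.962 and 0.947 in replicates 1, 2 and 3 (0.965 ± 0.0201, SD, n = 3, exact permutation p = 0.25, adjusted p = 0.318).

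Most X peaks recurred in the replicates, from which the authors chose the list, so recurrence is partly built in. A summit within 200 bp was found among the 5809 strongest peaks of replicate 1 for 913 X peaks (78.3%), of replicate 2 for 1059 (90.8%) and of replicate 3 for 1080 (92.6%). All 3 replicates held 809 X peaks (69.4%), against 70.1% of the whole list. Another 270 were found in 2 replicates, 85 in 1 and 2 in none.

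The strongest peak of the X, and of the whole list, stood 24 bp upstream of a start of Ugalt, a transporter of UDP-galactose into the Golgi. Its relative signal was 27.1, and it was 21.7, 28.2 and 27.6 in replicates 1, 2 and 3. The second, at -482 bp from a start of the Polycomb group gene ph-p, had 11.2, 15.0 and 16.0 (14.7 in the list). Replicate 1 was the lowest of the 3 for both. A further promoter peak of ph-p, 441 bp downstream of a start, reached 6.50, 6.25 and 6.71.

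Among the strongest X peaks found in all 3 replicates, with relative signals down to 5.91, only ph-p and lncRNA:CR44619 had a pair. Atf3 and MFS10 each had 1 peak of that strength. The non-coding gene lncRNA:CR44619 had peaks at -440 and 498 bp from its start. The first had a relative signal of 10.3, 11.3 and 9.98 in replicates 1, 2 and 3, and the second had 8.01, 8.99 and 9.92. At Atf3, which encodes a bZIP transcription factor, the promoter peak had 6.87, 10.3 and 9.62. A further peak 1919 bp from Atf3, between genes, had 3.46, 3.34 and 3.03. In replicates 2 and 3 the Atf3 promoter was stronger than in replicate 1. MFS10, a gene of the major facilitator transporters, had its peak at -176 bp with 8.42, 9.86 and 9.52.

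The strongest intron peaks of the X lay between 1255 and 2331 bp from a start. The peak 1255 bp inside CG32772 had a relative signal of 10.2, 11.7 and 12.3 in replicates 1, 2 and 3. That in Raf, the kinase that relays Ras signals to the MAP kinase pathway, was 2267 bp from a start and had 7.0, 9.50 and 8.64. That in Tlk, Tousled-like kinase, was 2331 bp from a start and had 6.93, 8.03 and 9.34. All 3 were in the first or second intron and lowest in replicate 1. The peak in norpA, which encodes the phospholipase C of phototransduction, had 6.46, 8.04 and 8.31, and that in CG3726 had 6.47, 7.90 and 7.72.

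Of the 20 strongest X peaks found in all 3 replicates, 13 were at promoters and 7 in introns, with relative signals down to 5.91. Besides the genes above they stood in introns of NFAT, a transcription factor (6.94), and LPCAT, a phospholipid acyltransferase (6.39). Promoter peaks were at TRAM (7.34), CG17896 (6.91), CG3009 (6.41) and moody, a G protein-coupled receptor of the glial blood-brain barrier (6.63). They were also at dnc, a cyclic AMP phosphodiesterase (6.04), and Gapdh2, a glycolytic enzyme (5.91). Outside genes the strongest X peaks lay 1337 bp from CG3149 towards AdamTS-B (5.08) and 775 bp from ph-d towards ph-p (4.92). They were followed by a site between CG12643 and alpha-Man-Ia (3.48).

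**Figure D4:**
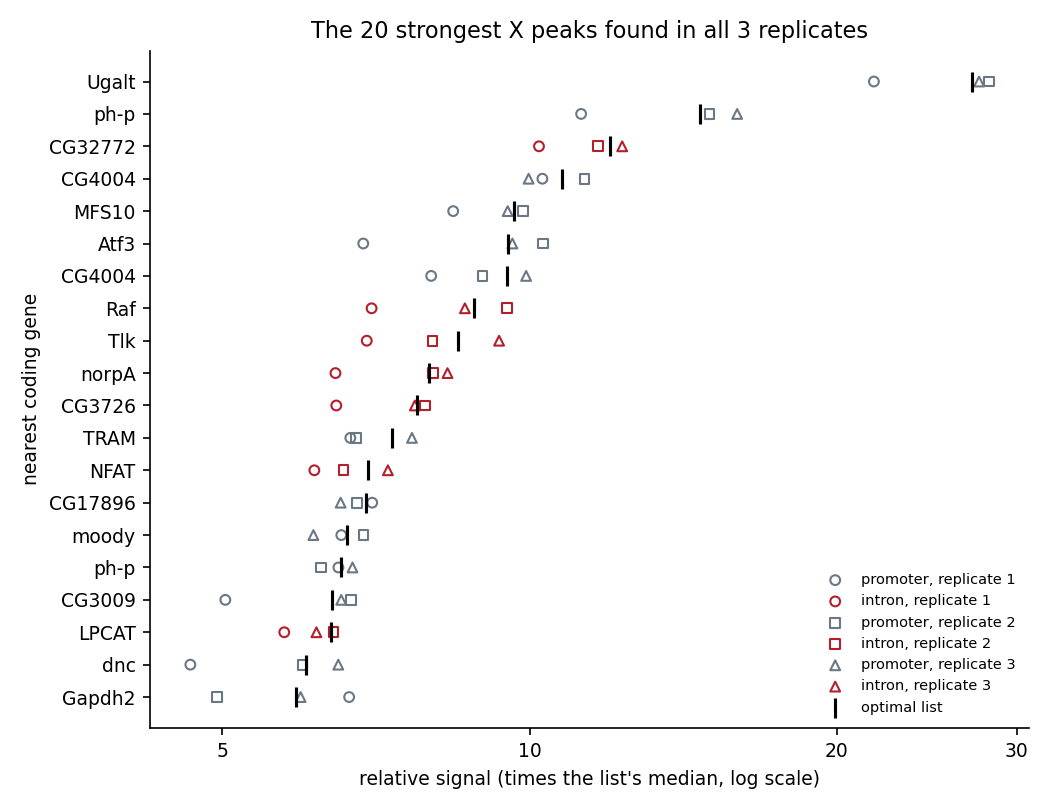
Relative signal (log axis) of the 20 strongest X peaks found in all 3 replicates, named by the nearest coding gene. Circles, squares and triangles give replicates 1, 2 and 3, in grey for promoter and red for intron peaks, and black bars give the optimal list. Ugalt stands apart at 27.1, and the other 19 lie between 5.91 and 14.7.

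X peaks were grouped along the arm slightly more than autosomal peaks. Runs of at least 3 peaks with neighbouring summits at most 5000 bp apart were counted as clusters. The X had 98 of them with 424 peaks, 36.4% of X peaks against 32.5% on the autosomes. The X share was 38.2%, 36.3% and 36.4% in replicates 1, 2 and 3, and the autosomal share was 34.6%, 31.1% and 32.0%. The X was higher in 3 of 3 replicates, by 4.41 points ± 0.747 (SD, n = 3, exact permutation p = 0.25, adjusted p = 0.318). Yet the arm 3L, at 36.9%, was no lower than the X. Of the 98 clusters 50 had 3 peaks and 19 had 4. The largest on the X had 13 peaks, and the largest on the autosomes had 10.

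The cluster of 13 peaks ran over 19383 bp (chrX:7691596-7710979) along CHES-1-like, which encodes a forkhead transcription factor. It held 10 intron peaks, 2 promoter peaks and 1 between genes. Their relative signals were between 0.565 and 5.89, and all 13 had CHES-1-like as nearest coding gene. Within this span replicates 1, 2 and 3 had 10, 14 and 12 of their strongest peaks. The second largest, 12 peaks over 18321 bp at CG14434, CG43736 and CG4558, had 12, 13 and 12 in the replicates. Its peaks were 6 at promoters and 6 in introns.

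A cluster of 10 peaks over 12802 bp ran from the promoter of CG2865 into Raf, and 8 of them were in introns. Their relative signals were 1.09 to 8.82. All 10 were found in all 3 replicates. A further cluster of 10 spanned 20768 bp over CG16721 and Usp30 to Act5C, a cytoplasmic actin gene, with signals of 0.579 to 2.83. The replicates 1, 2 and 3 had 7, 9 and 8 peaks there. A cluster of 9 lay at CG42258 and Rab40, 8 of them in introns, where replicates 1, 2 and 3 had 5, 8 and 8. Some of its summits lay close together, such as those 9207 and 9413 bp from the first, and each counts as a peak. Finally 8 peaks at ph-p, D2hgdh, Pgd and bcn92 covered 15311 bp, with 7, 8 and 9 in the replicates. A cluster at Inx2, Inx7 and ogre had 8 peaks too (6, 5 and 6), of which 4 were found in all 3 replicates.

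**Figure D5:**
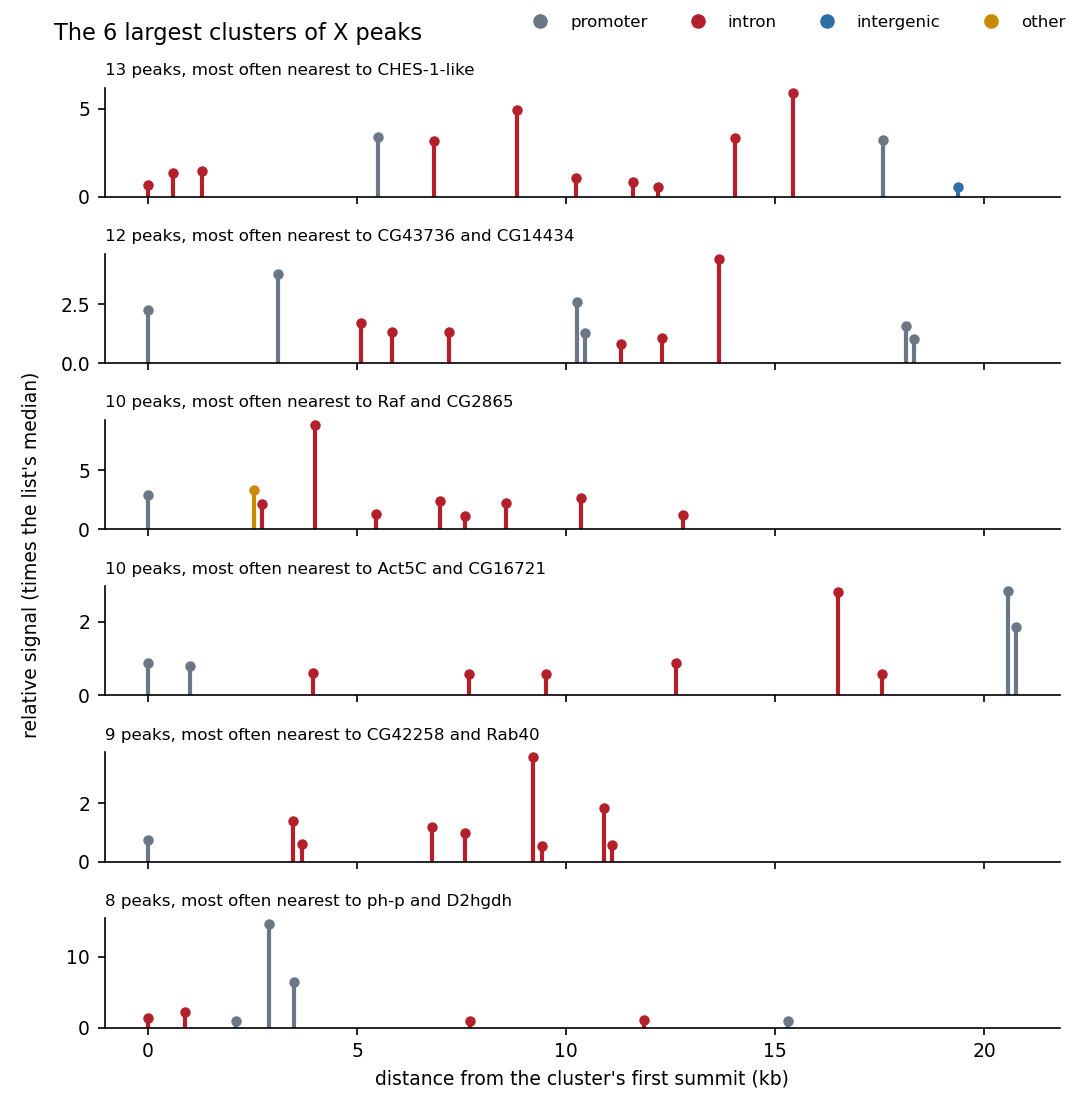
The 6 largest clusters of X peaks, each drawn from its first summit, with the distance in kb on the horizontal axis and the relative signal of each peak on the vertical axis, which differs between panels. Colours give the feature, with other for a UTR or coding sequence. The CHES-1-like cluster holds 13 peaks and the ph-p cluster has the highest single peak, at 14.7.

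Summits were assigned to each protein-coding gene that contained them or began within 2000 bp downstream. At least 1 summit was found for 824 of 2196 X genes (37.5%), against 34.3% over all arms and 33.7% on the autosomes. The X shares in replicates 1, 2 and 3 were 35.8%, 35.7% and 37.3%, and the autosomal shares were 34.8%, 32.6% and 34.1%. The X was higher in 3 of 3 replicates, by 2.46 points ± 1.19 (SD, n = 3, exact permutation p = 0.25, adjusted p = 0.318). With promoter peaks alone the difference was 0.252 points.

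The difference was largest among the longest genes, in a division by length made after the data had been seen. Of the 198 X genes over 20000 bp, 153 (77.3%) had a peak, against 64.3% of 815 autosomal genes. In replicates 1, 2 and 3 that share was 70.7%, 76.3% and 74.2% on the X and 61.1%, 64.3% and 64.2% on the autosomes. The shares were 53.5% and 49.8% for genes of 5001 to 20000 bp, 36.9% and 36.7% for genes of 2001 to 5000 bp, and 21.0% and 21.8% for genes of at most 2000 bp. Genes with 5 or more summits in their bodies numbered 35 on the X (1.59%), against 0.766% on the autosomes.

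The gene with most summits on the X was kirre, which encodes an immunoglobulin adhesion protein of muscle founder cells and spans 394149 bp. It held 22 summits, and replicates 1, 2 and 3 had 19, 26 and 23. CG1677 followed with 19 (18, 22 and 21), although none of the 19 had the start of CG1677 as its nearest. For kirre 9 of the 22 had its own start as nearest, and 5 of the 22 also lay in CG32795, Syx4, CG3588 or rst. CHES-1-like held 12 in 27048 bp, a density of 4.44 per 10 kb, against 0.558 for kirre. Raf also held 12, Ten-a, a teneurin of synaptic partner matching, held 11, and the nuclear receptor gene Hr4 and Tlk held 10 each. CG12535 and CG14434 held 9 each, and 0 of the 9 in CG12535 lay nearest to its own start. Together the first 8 of these hosts contained 105 X peaks (9.01%).

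X-linked genes of dosage compensation and X counting had a peak about as often as coding genes in general, of which 34.3% had one over all arms. Of the dosage compensation genes 1 of the 3 on the X had a peak, and 3 of the 7 on the autosomes. The non-coding RNA gene roX1 had 1 peak at -101 bp from a start, with a relative signal of 0.902, 0.885 and 0.965 in replicates 1, 2 and 3. The genes roX2 and mof had 0 peaks in the optimal list and 0 in the pooled relaxed list. Among the genes by which the embryo counts its X chromosomes and sets its sex, 2 of the 6 on the X and 5 of the 9 on the autosomes had a peak. Those on the X were Sxl, the switch gene of female development, and snf, which encodes a spliceosomal protein. Sxl had 4 peaks, the strongest in an intron at 1343 bp from a start (1.86, 2.37 and 2.49), and snf had a promoter peak (0.597, 0.821 and 0.875). The counting genes sisA, sc, run and upd1 had 0 in the optimal and the pooled relaxed list.

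Patterning and proneural genes of the X had a peak in 12 of 29, and the count was 12 in each replicate. They were led by Hr4 (4.67), the receptor gene N (2.91), the BMP antagonist gene sog (2.70) and nej, the CBP acetyltransferase (2.11). The proneural genes ac, sc, l(1)sc and ase had 0 peaks, and so did vnd, the homeodomain gene of the ventral column, although vnd had 3 pooled relaxed peaks. Neuronal genes had a peak in 26 of 37, led by norpA (7.98), dnc (6.04), the RNA-binding protein gene elav (5.35) and kirre (3.23). The elav peak lay nearest to the start of the non-coding gene lncRNA:enrr. Those of Hr4, N, nej and kirre lay nearest to the starts of CR46447, CG18508, lncRNA:CR42657 and CG32795.

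Signalling genes had a peak in 16 of 27, led by Raf (8.82), sgg, which encodes the kinase GSK3 (4.17), N and sog. Chromatin and transcription genes had one in 14 of 24. These were led by ph-p (14.7), its neighbour and duplicate ph-d (4.92), the corepressor gene Smr (3.20) and the topoisomerase gene Top1 (2.61). Housekeeping genes had one in 11 of 19, led by Gapdh2, the glucose-6-phosphate dehydrogenase gene Zw (4.26), the ubiquitin ligase subunit gene SkpA (4.17) and the moesin gene Moe (3.67). The SkpA peak lay nearest to the start of Hmt4-20, and those of Smr and Zw nearest to lncRNA:CR43963 and asRNA:CR44512. The shares of these 5 lists ran from 41.4% to 70.3%, against 34.3% of all coding genes, but gene length was not matched and the lists were chosen with earlier results of these data known.

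Cytoplasmic ribosomal protein genes had a peak in 13 of 14 on the X, against 52 of 78 on the autosomes, and in 14, 10 and 12 of 14 in replicates 1, 2 and 3. The share over all coding genes was 34.3%, and 37.5% on the X. All 13 had their strongest peak at a promoter, which was not always their own. The highest, counted for RpS28b (2.50, 1.91 and 2.32), lay nearest to the start of l(1)G0320, and those of RpS6, RpL35 and RpS14a lay nearest to bys, Rab18 and Dhdds. RpS5a (1.59), RpS10b (1.53) and RpL22 (1.47) followed, and RpS19a had 0 optimal peaks. For RpS10b, RpL22 and RpL17 replicate 1 was the highest, with 2.44, 2.55 and 2.31 against 1.24 or less in the others. Mitochondrial ribosomal protein genes had one in 3 of 11 on the X, against 38 of 62 on the autosomes (27.3% on the X). They were mRpL22 (1.19), mRpL33 (1.17) and mRpS25 (0.783). These 3 peaks had the starts of if, norpA and nmdyn-D6 as nearest. A list of eggshell, yolk and chemosensory receptor genes, which also held y, w and Sgs4, had a peak in 2 of 28. The Or9a peak was at the start of Neb-cGP, and the nearest start to that of Gr5a was Tre1.

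Known motifs were held by similar shares of X and autosomal summits. Each was sought as exact letters on both strands within 100 bp of the summit. TAATTA, the core bound by many homeodomains, was held by 18.2% of X summits and 18.0% of autosomal summits. It was found in 11.9% of X flanks, 11.7% of all X windows of that width and 8.37% of those at X starts. In replicates 1, 2 and 3 the X share was 17.6%, 16.9% and 17.9%, and it was higher than the autosomal share in 2 of 3 (exact permutation p = 1, adjusted p = 1).

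TATCGATA, the DNA replication-related element of many housekeeping promoters, was held by 8.56% of X promoter peaks and 0.731% of X intron peaks. Windows at X starts in general held it in 8.06% and all X windows in 0.706%. GGTCACAC, bound by M1BP, was at 3.97% of X promoter peaks and 1.10% of X intron peaks, against 5.20% of windows at X starts and 0.486% of all X windows. GAGAGA was in 10.5% of X summits and 10.5% of X flanks (7.43% of all X windows, 9.65% at X starts). CACACA was in 14.4% of summits and 19.3% of flanks (17.1% and 18.9%). CAGCTG, an E box, was in 7.55% of X summits and 7.98% of flanks (8.50% and 11.4%). AAAAAA was in 47.4% and 38.0% (34.8% and 40.2%). GGTCACAC and CACACA share the letters CACAC and can overlap. TATCGATA and GGTCACAC were slightly more frequent at X than at autosomal summits in the optimal list but less frequent in 3 of 3 replicates. For all 7 motifs the X minus autosome difference had an exact permutation p of 0.25 to 1 (adjusted p of 0.318 to 1).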

How the data were processed

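ChIP-seq peaks of ind-eGFP were deposited for 3 replicates, for their pooled reads and as an optimal list chosen by the irreproducible discovery rate. The signal per peak and the −log10 q-value are the authors' deposited values, in dm6 and dm3. Per the deposited notes, peaks were called against 1 control. Aligner, caller and software versions: not given in the sources used here. Read depth is unknown. The control library, alignments and tracks were not analysed here.

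Summits were annotated with Ensembl BDGP6.54 release 115, in the order promoter (500 bp on each side of a start), 5' UTR, coding sequence, 3' UTR, intron and intergenic. Replicate values come from the 5809 strongest peaks of each list, matched within 200 bp. Relative signals in a replicate use the matched peak of its full list and the median of all matched peaks. X and autosomes were compared by an exact two-sided sign-flip permutation test over replicates, with Benjamini-Hochberg adjustment over 14 measures. The 3' UTR share, CACTG, 6-letter words, gene-length classes, first introns and signal classes were added after the data were seen. Named genes are those at the 20 strongest peaks found in all 3 replicates, the 6 largest clusters, the 8 hosts with most summits, the 4 strongest intron and intergenic peaks, the 4 strongest of each list with all dosage compensation and counting genes, and the 2 strongest peaks of each replicate absent elsewhere. The members and 10 gene lists were chosen with earlier results of these data known. Scripts were tested on simulated data. Alternatives changed windows, matching, thresholds, lists and replicates. Software was Python 3.11.15 with scipy 1.17.1, pandas 2.3.3, numpy 2.4.6 and, for figures, matplotlib 3.10.9.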

Additional observations from a re-analysis of the deposited data

How the results depend on the processing

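The lower promoter share and the higher intron share of the X kept their direction under every alternative run. The promoter difference was -10.9 points with peaks found in all 3 replicates, -6.32 in the pooled relaxed list with −log10 q of at least 2, -8.03 and -9.76 with promoter windows of 1000 and 250 bp, and -12.4 in the stronger 50% of the list. In the same order the intron difference was 14.4, 11.4, 11.5, 13.7 and 15.5 points. The intergenic difference was -6.79 in the relaxed list, -4.58 and -6.37 with those windows and -4.67 in the stronger 50%. Leaving out 1 replicate gave -5.35 to -4.98, and 0.982 to 1.22 for 3' UTRs.

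The density ratio, 1.18 in the main run, was 1.26 per annotated start. It was 1.13 without 100 kb bins that hold no pooled relaxed peak and 1.13 in the stronger 50% of the list. Without 1 replicate it was 1.13 to 1.21. The share of X peaks found in all replicates was 66.4% with a match within 100 bp and 47.2% with intervals that overlap by at least 50% of both. The ratio of median signals was 0.981 in the relaxed list. The cluster difference was 4.74 points with gaps of 10000 bp, 7.76 with at least 5 peaks, 5.08 with peaks found in all 3 replicates, 2.34 in the relaxed list, 5.22 in the stronger 50% and 4.03 to 4.78 without 1 replicate. The gene difference was 5.63 points for gene bodies, 5.15 for nearest starts, 1.46 with peaks found in all 3 replicates, 0.252 with promoter peaks, 0.283 in the stronger 50% and 2.07 to 3.14 without 1 replicate. CACTG exceeded its flanks by 5.02 points within 50 bp and by 21.0 to 23.2 without 1 replicate.

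Motif differences were small and several changed sign. With windows of 50 bp AAAAAA was at 0.693, CAGCTG at 0.650 and TATCGATA at -0.0508 points. With 200 bp TAATTA was at -2.94, GGTCACAC at -0.386, CACACA at 5.80 and GAGAGA at 3.89. In the relaxed list AAAAAA was at 0.815, CACACA at 1.98 and TATCGATA at 0.239. With peaks found in all 3 replicates TATCGATA was at -0.618, GGTCACAC at -0.572 and CAGCTG at -0.244. In the stronger 50% these were -1.53, -0.787 and -1.76, with AAAAAA at -4.32. Without 1 replicate CACACA ranged over 1.28 to 1.92, CAGCTG over -0.437 to -0.0746, GGTCACAC over -0.373 to -0.227 and TATCGATA over -0.283 to -0.257. The cause of these changes was not tested.

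Between sample groups, no paired analysis was possible because there is only 1 group. X and autosomes were compared within each replicate. Arm lengths of dm3 were not used here, so density was not run in that build, where the X held 20.2% of optimal peaks. With 3 replicates the sign-flip test gives no p below 0.25, and read depth is unknown.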

Other observations

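The full list of each replicate also had X peaks that no other list matched within 500 bp. There were 1576, 980 and 618 such peaks in replicates 1, 2 and 3, whose full relaxed lists held 30000, 27570 and 25725 peaks. The share of such peaks over all arms is not given here, so these counts are not a result about the X. The strongest of replicate 1 stood at the promoters of CG14805, with a signal 5.41 times the median of its list (rank 1451 of 30000), and of Shawn (rank 3659). Those of replicate 2 lay in an intron near Lztr1 (rank 4720 of 27570) and between genes near CG43138 (rank 7955). Those of replicate 3 ranked lower, in an intron of Raf (rank 9759 of 25725) and between genes near CG12507 (rank 9806).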
